A study of Mus musculus with 12 samples.

Results

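The genes described here are 10 members of the unfolded protein response that act in or around the endoplasmic reticulum (ER): *Hspa5*, *Hsp90b1*, *Calr*, *Pdia4*, *Dnajb9*, *Sdf2l1*, *Herpud1*, *Manf*, *Creld2* and *Xbp1*. They were chosen by name, as chaperones and partners of the ER stress program, from 55401 gene identifiers measured in mouse kidney. Earlier results of these data were known at that time, so counts of members that passed are no independent test. All 10 were found and passed the filter on low counts. RNA-Seq was performed on whole kidneys of male C57BL6 mice aged 8 weeks. In the control group, 6 mice received an intraperitoneal injection of vehicle, a 15% solution of 2-hydroxypropyl-beta-cyclodextrin. In the other group, 6 mice received SK-124 in that vehicle at 40 mg/kg. SK-124 is an orally available small molecule inhibitor of the salt-inducible kinases SIK2 and SIK3, which hold transcriptional coactivators of CREB in the cytosol, and the comparison asks which kidney transcripts follow their inhibition. The interval between injection and tissue collection was not given for these libraries in the sources used here. No gene was deleted in either group.

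Secreted and membrane proteins fold in the ER lumen with the help of chaperones, disulfide isomerases and lectins. When unfolded proteins accumulate, the sensors IRE1, PERK and ATF6 raise transcription of these helpers. IRE1 splices the *Xbp1* transcript to yield an active transcription factor, ATF6 is cut to release another, and PERK lowers general translation while favoring ATF4. In the kidney the tubular epithelium synthesizes large amounts of transporters and receptors through this route, and interstitial plasma cells are specialized secretory cells.

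Promoter sequences of the members are shown first, with the elements that were searched in them. The mouse promoters of RefSeq on build GRCm38.p6, from 250 bases before to 50 bases after each start, held 9 of the 10 members, all but *Manf*. The ER stress response element (ERSE) was searched as CCAAT and CCACG 9 bases apart on either strand. It was found in *Hspa5*, *Hsp90b1*, *Creld2* and *Calr*, and in 0.119% of all 32851 promoters. The related ERSE-II, ATTGG and CCACG 1 base apart, was found among the members in *Herpud1* alone, and in 0.0365% of promoters. *Herpud1* also held TGATGCAA, the core of elements bound by C/EBP and ATF proteins, which occurred in 0.895% of promoters, and TGACG, the short form of the cyclic AMP response element. TGACG was also present in *Hspa5* and *Dnajb9*, and in 20.8% of promoters. TGACGTGG, bound by XBP1, and the full cyclic AMP response element TGACGTCA were in no member promoter of these windows, against 0.676% and 1.79% of promoters. *Xbp1*, *Sdf2l1* and *Pdia4* held none of the elements searched. The motifs were chosen after the expression results were seen, and a match describes letters, not binding.

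The stretch of the *Herpud1* promoter that carries these elements lies at chr8:94386287-94386399 on the plus strand, upstream of annotated exons, with TGACG, the reverse complement of TGATGCAA and ERSE-II in capitals in that order.
Herpud1: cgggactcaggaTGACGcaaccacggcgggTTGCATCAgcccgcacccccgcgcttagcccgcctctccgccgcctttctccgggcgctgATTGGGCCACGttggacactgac

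The ERSE matches are given for comparison, with the element in capitals. The *Hspa5* window is chr2:34772020-34772049 on the plus strand and lies within an annotated exon. The TGACG of *Hspa5*, at chr2:34771933-34771937, lies upstream of that window and is not shown. The *Hsp90b1* window is chr10:86705521-86705668 on the minus strand and holds 2 matches. *Creld2* is shown at chr15:88819508-88819550 on the plus strand, and *Calr* at chr8:84847063-84847105 on the minus strand.
Hspa5: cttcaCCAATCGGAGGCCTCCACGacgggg
Hsp90b1: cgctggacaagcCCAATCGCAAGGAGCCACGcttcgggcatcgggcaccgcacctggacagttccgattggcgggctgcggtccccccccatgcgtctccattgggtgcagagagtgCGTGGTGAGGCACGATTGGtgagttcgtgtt
Creld2: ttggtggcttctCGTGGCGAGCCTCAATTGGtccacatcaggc
Calr: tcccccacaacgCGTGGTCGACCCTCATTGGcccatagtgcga

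The *Dnajb9* window, chr12:44210192-44210220 on the minus strand, lies within an annotated exon and has TGACG in capitals.
Dnajb9: tggcgacggaagTGACGcaaggaccaaac

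Libraries were close in depth, with summed expected counts between 19350134 and 19771802 in vehicle mice and between 19244227 and 19530313 in SK-124 mice. The 10 most abundant genes took 39.9% to 43.2% of counts in vehicle mice, 44.4% to 46.8% in SK-124 mice 1 to 3 and 38.6% to 40.2% in SK-124 mice 4 to 6. Proximal tubule markers were abundant in every library, their summed level lying between 2729 and 3209 TPM (transcripts scaled to gene length and library) with vehicle and between 2285 and 2792 TPM with SK-124. The sum was below all vehicle mice in 5 of 6 SK-124 mice, while 0 of 8 single markers passed edgeR's test on the TMM scale, and its part in the members' values was not tested. Of 6 adrenal cortex markers *Cyp11b2* and *Cyp21a1* were at 0 in all 12 mice, as were *Prss2*, *Amy2a5* and *Pnlip* of 5 pancreatic markers. The pancreatic list was not absent as a whole. *Cela1* was at 25.7 to 34.0 CPM with vehicle and at 25.8 to 32.1 CPM with SK-124, while *Cpa1* had fewer than 10 counts in every mouse.

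After SK-124, *Herpud1* and *Dnajb9* rose, *Xbp1* and *Pdia4* fell, and the 3 most abundant ER chaperones of the set had nearly equal means in both groups on the TMM scale used for the test. Of the 10 members, 2 were higher and 2 lower in edgeR's quasi-likelihood test at a Benjamini-Hochberg false discovery rate (FDR) under 0.05, and 6 did not pass. In the whole table, 24.4% of 14159 genes tested passed, 10.8% higher and 13.5% lower. Read against that background, the count alone does not set the members apart. The median log2 fold change was -0.01 over the members and -0.005 over all genes tested. Groups did not overlap in CPM (counts scaled to library size by the trimmed mean of M values, TMM) for 2 members that were higher and 1 that was lower, against 6.32% and 6.65% of all genes tested.

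**Figure D1:**
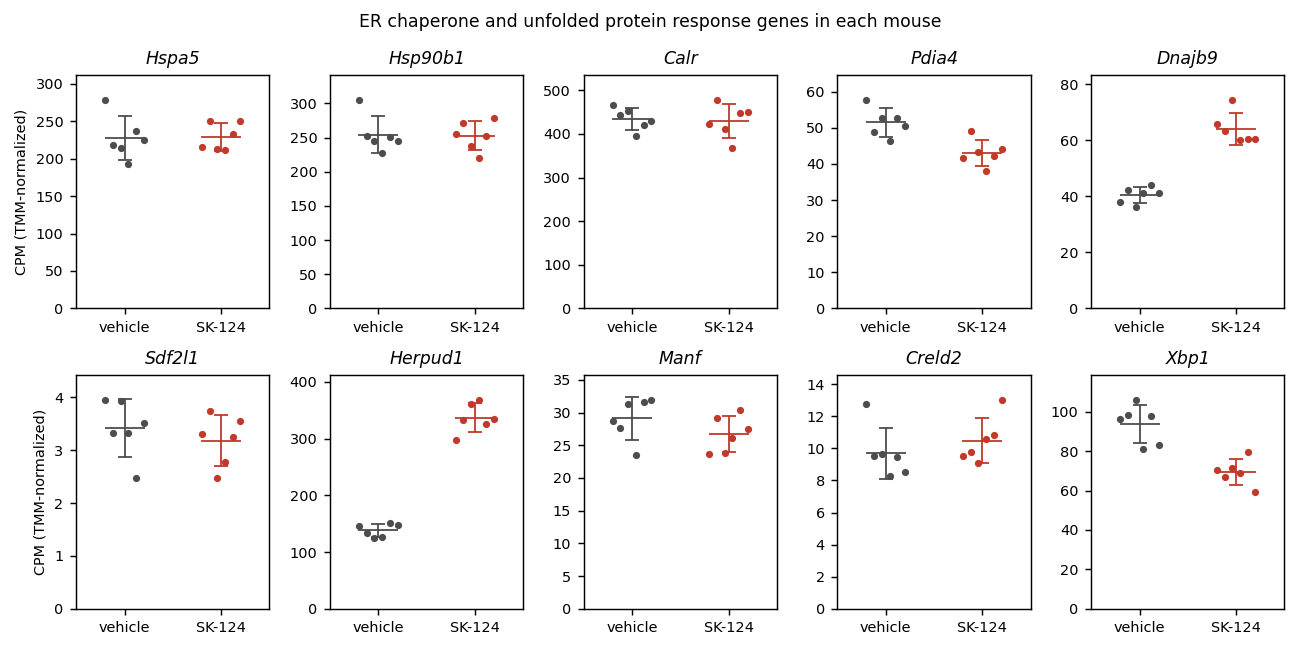
Level of each of the 10 genes in each mouse, in TMM-normalized CPM on axes that start at 0. Points are the 6 vehicle and 6 SK-124 mice, and the horizontal line and bars are the mean ± SD. All SK-124 mice lie above all vehicle mice for *Herpud1* and *Dnajb9* and below them for *Xbp1*.

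*Hspa5* encodes BiP, the HSP70 of the ER lumen and the chaperone that holds the stress sensors inactive. Its lowest, median and highest levels were 193, 221 and 279 CPM in vehicle mice and 212, 224 and 251 CPM in SK-124 mice. The SK-124 range lay within the vehicle range. The log2 fold change was 0.01 (SE 0.08, 95% interval -0.16 to 0.17, FDR = 0.961 by edgeR's quasi-likelihood test). This interval, 0.897 to 1.13 as a fold, holds for the TMM scale. On the log2(TPM + 1) scale the difference was -0.18 (FDR = 0.310 by limma's test).

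*Hsp90b1* encodes GRP94, the HSP90 of the ER. Vehicle mice had 228, 248 and 306 CPM as lowest, median and highest values, and SK-124 mice had 221, 254 and 279 CPM. The groups overlapped over nearly their whole ranges, with vehicle mouse 1 above all others. The log2 fold change was -0.01 (SE 0.07, 95% interval -0.16 to 0.14, FDR = 0.939). *Calr*, for calreticulin, a calcium-binding lectin chaperone of glycoproteins, ranged from 394 through a median of 436 to 466 CPM with vehicle and from 368 through 435 to 479 CPM with SK-124. Its log2 fold change was -0.01 (SE 0.06, 95% interval -0.15 to 0.12, FDR = 0.900). For these chaperones, which share an ERSE in the windows shown above, the medians of both groups lay within the other group's range.

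*Pdia4* encodes ERp72, a protein disulfide isomerase. It was at 46.3, 51.6 and 57.8 CPM with vehicle as lowest, median and highest, and at 38.1, 42.7 and 49.2 CPM with SK-124. The groups overlapped, since SK-124 mouse 2 lay above vehicle mice 2 and 4. *Pdia4* fell by 0.26 on the log2 scale (SE 0.07, 95% interval -0.40 to -0.12, FDR = 0.00787), or to 0.836 of the vehicle level. With SK-124 mice 1 to 3 alone against all vehicle mice, the log2 fold change was -0.20 and no longer passed edgeR's test (FDR = 0.116). With SK-124 mice 4 to 6 alone it was -0.31 and passed (FDR = 0.0167). Either split gives the test fewer mice and less power, and the reason for the lost call was not tested. The share of counts in the 10 most abundant genes was higher in SK-124 mice 1 to 3 than in vehicle mice, and its part in the result was not tested.

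*Dnajb9* encodes ERdj4, a J-domain partner of BiP that helps BiP to bind IRE1 and delivers misfolded proteins for degradation. Its levels were 36.2, 41.2 and 43.9 CPM with vehicle and 60.0, 61.8 and 74.5 CPM with SK-124 as lowest, median and highest. Every SK-124 mouse lay above every vehicle mouse, and SK-124 mouse 3 was the highest. *Dnajb9* rose 1.58-fold (log2 fold change 0.66, SE 0.07, 95% interval 0.53 to 0.80, FDR = 8.55e-07). It ranked 209 of 14159 genes by p value.

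*Sdf2l1* encodes a component of a chaperone complex of the ER that works with BiP. It was the least abundant member, at 2.47, 3.42 and 3.95 CPM with vehicle and 2.46, 3.28 and 3.74 CPM with SK-124, and its lowest expected count in a library was 44. The ranges nearly coincided. The log2 fold change was -0.10 (SE 0.13, 95% interval -0.39 to 0.18, FDR = 0.633), and at this depth a change to 0.765 of the vehicle level was not outside the interval.

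*Herpud1* encodes HERP, a ubiquitin-like protein of the ER membrane that organizes the degradation complex for misfolded proteins. Its lowest, median and highest levels were 124, 139 and 152 CPM in vehicle mice and 298, 335 and 368 CPM in SK-124 mice. The lowest SK-124 mouse, mouse 1, was far above the highest vehicle mouse. *Herpud1* rose 2.44-fold (95% interval 2.21 to 2.69), a log2 fold change of 1.29 (SE 0.07, FDR = 3.38e-10). It ranked 28 by p value among 14159 genes and 165 by fold change among the genes with a positive one. An antisense transcript, *Gm15890*, overlaps the gene at chr8:94386438-94395377, and whether counting used the strand was not given in the sources used here.

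*Manf* and *Creld2* encode small proteins of the ER lumen that are secreted under stress. *Manf* had 23.5, 29.998 and 31.9 CPM with vehicle and 23.6, 26.9 and 30.4 CPM with SK-124, with overlapping groups. Its log2 fold change was -0.12 (SE 0.08, 95% interval -0.30 to 0.05, FDR = 0.328). Its annotated span overlaps other genes, among them *Dcaf1* on the other strand and *Rbm15b* on the same strand. Their reads could be split with *Manf*. *Creld2* had 8.27, 9.48 and 12.7 CPM with vehicle and 9.08, 10.2 and 13.0 CPM with SK-124. The groups overlapped, and the log2 fold change was 0.11 (SE 0.11, 95% interval -0.11 to 0.34, FDR = 0.486). For the 6 members that did not pass, the fold intervals together ran from 0.765 to 1.27.

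*Xbp1* encodes the transcription factor that IRE1 activates by splicing its transcript. The gene-level values join spliced and unspliced forms, so they bear on the amount of transcript and not on splicing. *Xbp1* was at 81.1, 97.1 and 106 CPM with vehicle and at 59.5, 69.6 and 79.5 CPM with SK-124 as lowest, median and highest. Every SK-124 mouse lay below every vehicle mouse on this scale, although on the TPM scale the highest SK-124 mouse, at 39.7 TPM, was above the lowest vehicle mouse, at 38.6 TPM. *Xbp1* fell by 0.43 on the log2 scale (SE 0.08, 95% interval -0.59 to -0.28, FDR = 0.000368), a decrease to 0.740 of the vehicle level.

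*Xbp1* is highly expressed in plasma cells. Of 6 tested markers of a joint plasma and B cell list 4 were lower after SK-124, against 13.5% of all genes tested. The summed level of 9 such markers was 11.4, 12.4 and 30.1 TPM in vehicle mice and 5.40, 6.84 and 9.91 TPM in SK-124 mice, with all 6 SK-124 mice below all vehicle mice. The 4 that were lower in edgeR's test were *Ighm*, *Igkc*, *Cd79a* and *Sdc1*. Of the others, *Mzb1* was higher (log2 fold change 1.39, FDR = 0.00145) and *Derl3* did not pass (0.31, FDR = 0.554). The defining plasma cell markers *Jchain* and *Tnfrsf17* had fewer than 10 counts in every mouse. A change of plasma cells as such could therefore not be read from this list. In whole tissue, fewer cells of a type and less RNA per cell cannot be told apart, and the part of these cells in the *Xbp1* value was not tested. Of 4 tubular injury markers tested 3 were higher, of 5 fibroblast markers 2 were lower, and of 4 endothelial markers 1 was lower, and the part of these in the members' values was likewise not tested.

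**Figure D2:**
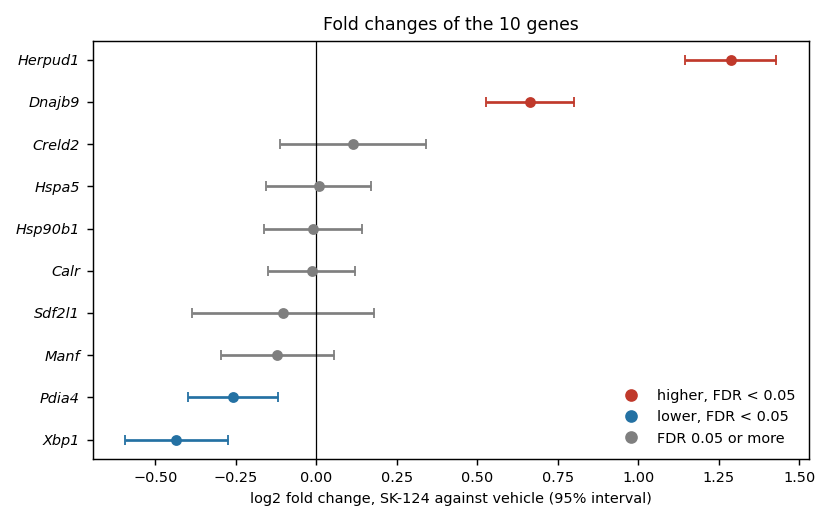
Log2 fold change of each gene, SK-124 against vehicle, with its 95% interval from edgeR's quasi-likelihood fit (6 mice per group). *Herpud1* at 1.29 and *Dnajb9* at 0.66 lie to the right of 0, *Xbp1* at -0.43 and *Pdia4* at -0.26 to the left, and the intervals of the other 6 genes include 0.

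Levels were compared between genes on the TPM scale, which divides by transcript length. In vehicle mice *Calr* was highest, with a median of 266 TPM, followed by *Hspa5* at 96.9 and *Hsp90b1* at 95.5 TPM. *Herpud1* came next at 76.1 TPM, then *Xbp1* at 47.4, *Manf* at 43.6, *Pdia4* at 21.6, *Dnajb9* at 16.5, *Creld2* at 7.38 and *Sdf2l1* at 3.53 TPM. The ranges of *Hspa5* and *Hsp90b1*, of *Hsp90b1* and *Herpud1*, of *Xbp1* and *Manf*, and of *Pdia4* and *Dnajb9* overlapped between mice, and those of the other neighbouring pairs did not. Within a library, however, *Hsp90b1* was above *Herpud1* and *Pdia4* above *Dnajb9* in 6 of 6 vehicle mice, while *Hspa5* was above *Hsp90b1* in 4 of 6 and *Xbp1* above *Manf* in 5 of 6.

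The order shifted in SK-124 mice. *Herpud1* moved to second place with a median of 181 TPM, from 139 to 212 TPM, while *Calr* kept the highest median at 221 TPM, from 211 to 272 TPM, and these ranges touched. Within a library *Herpud1* was now above *Hsp90b1* in 6 of 6 mice, and *Dnajb9*, at 24.1 TPM, was above *Pdia4*, at 15.8 TPM, in 6 of 6. *Xbp1* was above *Manf* in 1 of 6 SK-124 mice.

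Each member was also set against *Hspa5* of the same library, a ratio that no scaling between libraries can move. Per 100 TPM of *Hspa5*, *Herpud1* was at 69.7, 82.0 and 88.8 TPM in vehicle mice and at 184, 194 and 263 TPM in SK-124 mice as lowest, median and highest. The groups were far apart (difference of mean log2 ratios 1.37, two-sided exact permutation p = 0.00216, the smallest that 924 assignments of 6 and 6 mice allow). *Dnajb9* was at 13.6, 18.0 and 20.8 TPM against 23.5, 27.6 and 35.9 TPM per 100 TPM of *Hspa5* (0.69, exact permutation p = 0.00216). *Xbp1* went the other way, from 41.7, 49.7 and 58.7 to 28.3, 39.6 and 41.5 TPM per 100 (-0.41, exact permutation p = 0.00216). The *Xbp1* groups missed each other narrowly.

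*Pdia4* was at 21.4, 22.5 and 25.1 TPM with vehicle and at 17.7, 19.4 and 21.4 TPM with SK-124 per 100 TPM of *Hspa5* (-0.23, exact permutation p = 0.00433), and its groups met at their edges. *Hsp90b1* kept nearly the same ratio, at 93.7, 98.8 and 108 against 96.9, 97.8 and 106 TPM per 100, with a difference of 0.002 on the log2 scale (exact permutation p = 0.952). Of the 9 ratios computed, the remaining 4 gave exact permutation p between 0.0996 for *Creld2* and 0.829 for *Calr*. The 9 ratios share *Hspa5* as denominator and are not independent of each other.

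**Figure D3:**
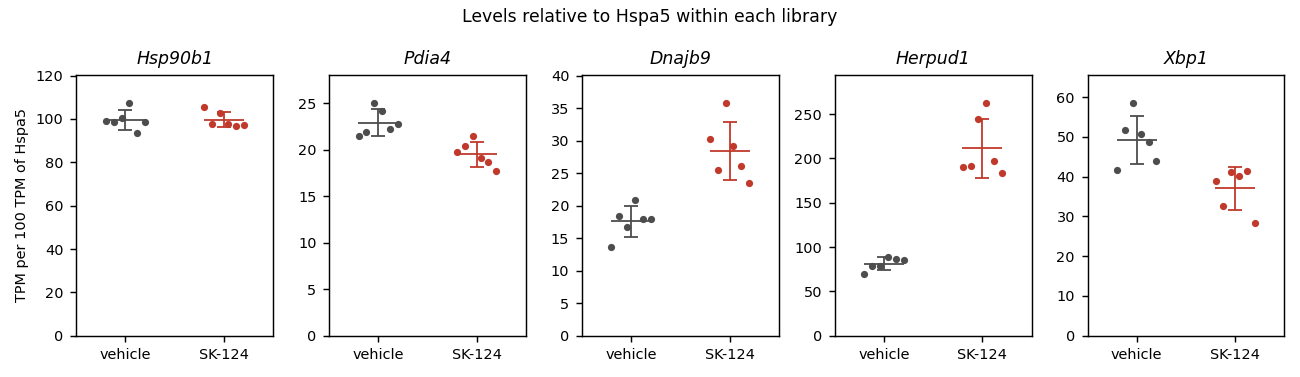
TPM of 5 genes per 100 TPM of *Hspa5* in the same library, on axes that start at 0. Points are the 6 mice of each group, and lines and bars are the mean ± SD. *Hsp90b1* is near 100 in both groups, while *Herpud1* has medians of 82.0 with vehicle and 194 with SK-124.

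Within groups, several members were highest or lowest in the same mouse. In CPM, vehicle mouse 1 was the highest of its group for *Hspa5*, *Sdf2l1*, *Creld2*, *Pdia4*, *Hsp90b1* and *Calr*, and vehicle mouse 4 was the lowest for 7 members. SK-124 mouse 4 was the lowest of its group for 5 members and the highest for *Herpud1*. Vehicle mouse 4 also had the highest summed level of plasma and B cell markers, 30.1 TPM, and its part in these values was not tested. By the correlation over 12 mice between deviations from the own group's mean and the mean of the members' standardized deviations, the genes most like the members' mean were *Zfp991* (r = 0.87), *Hsp90ab1* (0.86), *Hbp1* (0.85), *Polr2h* (0.85), *Gm5475* (0.84), *Tmem139* (0.83), *Gm10778* (0.81), *Slc44a4* (0.80), *Rsrc2* (0.79) and *Pigk* (0.79), of 12998 genes ranked. That mean follows the abundant chaperones more than the members that rose: r with the mean of the other members was 0.92 for *Hspa5*, 0.85 for *Pdia4*, 0.84 for *Hsp90b1* and 0.78 for *Calr*, 0.55 for *Creld2* and 0.51 for *Manf*, but 0.25 for *Sdf2l1*, 0.09 for *Xbp1*, 0.08 for *Herpud1* and -0.42 for *Dnajb9*. Of 97 other ER genes ranked, 2 were among the 100 highest of the 12998, and that count was not tested. The 10 genes named first are the highest of 12998 correlations over 12 mice. High values are bound to occur among so many, and none of the 10 correlations was tested. Between groups, *Hbp1* was higher (log2 fold change 0.54, FDR = 5.09e-07) and *Gm5475* lower (-1.47, FDR = 1.90e-05) in edgeR's test, and the others did not pass. By Spearman rank correlation the 10 ranged from 0.47 for *Tmem139* to 0.89 for *Polr2h*.

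The members were read beside 100 other genes of the ER folding and export machinery, of which 98 were tested. There 5 were higher and 6 lower, 11.2% in all against the 24.4% of the whole table, with a median log2 fold change of 0.05. The count of higher genes depended on scaling: it was 0 with library totals and 0 on the TPM scale, and it was 12 without vehicle mouse 3. None of the 5 higher genes, all named below, thus passed as higher with library totals or on the TPM scale. Those scalings also shifted the whole table: its median, -0.005 on the log2 scale with TMM, was -0.12 with library totals and -0.11 on the log2(TPM + 1) scale. *Herpud1* and *Dnajb9* passed the test as higher under both. On the log2(TPM + 1) scale *Hspa5* was at -0.18, *Hsp90b1* at -0.17 and *Calr* at -0.19, none past the limma test.

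Among the sensors and processing factors, 10 tested, *Eif2ak3*, the gene for PERK, rose (log2 fold change 0.35, SE 0.09, FDR = 0.00767 by edgeR's test). *Creb3l1* (-0.62, SE 0.09, FDR = 7.63e-05), *Creb3l2* (-0.40, SE 0.10, FDR = 0.00569) and *Atf6b* (-0.17, SE 0.05, FDR = 0.0129) fell. These encode transcription factors made as membrane-bound precursors, as do *Atf6* (0.08, FDR = 0.553) and *Creb3* (0.02, FDR = 0.831), which did not pass and are named after their values were seen. None of 13 co-chaperones of ER HSP70 and HSP90 passed the edgeR test, with log2 fold changes between -0.21 and 0.18, against 0.66 for *Dnajb9*.

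Of 7 calnexin cycle genes tested *Mogs*, the glucosidase that trims the first glucose of N-glycans, fell (-0.43, SE 0.07, FDR = 0.000253). Of 15 disulfide formation genes, *Pdia5* (-0.49, SE 0.11, FDR = 0.00326) and *Txndc5* (-0.24, SE 0.05, FDR = 0.00119) fell, and the span of *Txndc5* overlaps *Bmp6* on the other strand. Other disulfide isomerases, named after their values were seen, did not pass: *P4hb* was at 0.08 (FDR = 0.277), *Pdia6* at 0.01 (FDR = 0.945) and *Pdia3*, of the calnexin cycle list, at -0.02 (FDR = 0.799). ER-associated degradation had 2 of 21 genes higher, 9.52% against 10.8% of all genes tested. These were *Sel1l*, the adaptor of the ubiquitin ligase HRD1 (0.26, SE 0.07, FDR = 0.0161), and *Herpud2*, the paralog of *Herpud1* (0.28, SE 0.06, FDR = 0.00141). *Herpud2* was at 26.4, 29.1 and 32.6 CPM with vehicle and at 34.2, 35.2 and 37.3 CPM with SK-124, without overlap, a smaller difference than that of *Herpud1*. Of 16 translocation genes *Sec62* (0.20, FDR = 0.00894) and *Sec11a* (0.23, FDR = 0.0387) rose, and of 16 COPII export genes none passed the edgeR test, with values from -0.37 to 0.14. The span of *Sec11a* overlaps *Nmb* on the same strand.

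**Figure D4:**
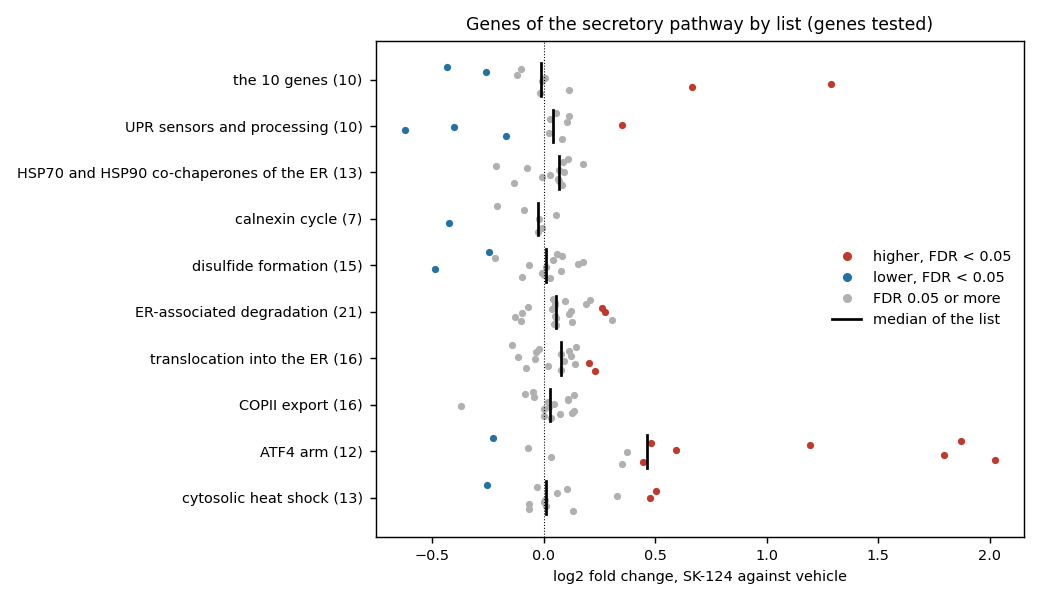
Log2 fold changes, SK-124 against vehicle, of the genes tested in each list, with colored points for FDR under 0.05 and a black line at the median of each list. Medians of the ER lists lie close to 0, and that of the ATF4 arm lies at 0.46.

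Targets of the PERK and ATF4 arm were compared as a separate list, also chosen with earlier results of these data known. Of 12 tested, 7 were higher and 1 lower, with a median log2 fold change of 0.46. That share, 66.7%, stands beside 24.4% of the whole table. The others did not pass edgeR's test: *Ddit3* (0.37, FDR = 0.173), *Asns* (0.35, FDR = 0.123), *Phgdh* (-0.07, FDR = 0.759) and *Cebpg* (0.03, FDR = 0.850). *Trib3* did not pass the filter on low counts and was not tested. The higher genes with the smallest p were *Sesn2* (1.87, SE 0.07, FDR = 5.97e-12), a stress-induced regulator of growth signaling, *Cebpb* (2.02, SE 0.13, FDR = 7.31e-09), a transcription factor, *Ppp1r15a* (1.19, SE 0.12, FDR = 9.43e-07), which directs dephosphorylation of eIF2alpha, and *Psat1* (0.48, SE 0.07, FDR = 3.78e-05), an enzyme of serine synthesis. *Vldlr*, a lipoprotein receptor, fell (-0.23, SE 0.06, FDR = 0.014). *Atf4* itself, named after its value was seen, was at 46.2, 52.6 and 62.8 CPM with vehicle and at 64.1, 70.6 and 83.8 CPM with SK-124 (0.44, FDR = 0.00115). Genes of this list, such as *Cebpb*, also answer to signals other than ER stress. Of 13 cytosolic heat shock genes, *Hspa1a* (0.48, SE 0.16, FDR = 0.0413) and *Hspb1* (0.50, SE 0.14, FDR = 0.0124) rose and *Hsph1* fell (-0.25, SE 0.08, FDR = 0.0341). These were 23.1% in all, against 24.4% of the whole table. The spans of *Ppp1r15a*, *Cebpb* and *Hspa1a* overlap *Tulp2*, *Tmem189* and *Gm20481*, in that order, on the other strand.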

How the data were processed

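Total RNA of whole kidney was sequenced on a BGISEQ-500, 1 library per mouse. Per the submitters' processing notes, FastQC, STAR 2.7.2b, RSEM 1.3.0, DESeq2 and build mm10 were used; annotation release and strand setting were not given in the sources used here. The authors deposited an RSEM expected count and a TPM value for each gene and library. Expected counts were rounded, filtered (filterByExpr) and TMM-scaled, and SK-124 was compared with vehicle by the quasi-likelihood test of edgeR 4.0.16, with p values adjusted after Benjamini and Hochberg over all 14159 genes tested. The main text of the paper states no test for these libraries, and its supplemental methods were not used here. Of 200 simulated changed genes, all 2-fold changes (100%) and 92.0% of those at log2 0.5 were recovered, with 5.05% false calls (14159 genes, 8 draws). The simulation gave every gene the same variability between mice and changed only well-counted genes, as many up as down. In the real data 24.4% of genes passed, so these rates check the code and need not hold for this experiment. The deposited TPM served for levels between genes and for ratios to *Hspa5* (exact permutation test). Symbols and coordinates came from GENCODE M21, the symbol of *Xbp1* by identifier without version.

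The members and lists were chosen with earlier results of these data known. Genes named were the 10 members, every gene of an ER, ATF4 or heat shock list with FDR under 0.05 (the 4 with the smallest p in a direction where more passed), and the 10 genes of at least 1 CPM with the highest r to the members' mean deviation of log2(CPM + 0.5). Alternatives were RLE scaling, library totals, 2 other filters, unrounded counts, DESeq2 1.42.0, limma 3.58.1 on log2(TPM + 1) and log2(TPM + 0.1), a replicate block, leaving out each mouse, and SK-124 mice 1 to 3 or 4 to 6 alone. Same-numbered samples are different mice. Libraries of 19244227 to 19771802 counts gave every member at least 44 counts per mouse. The edgeR p values set the difference between groups against the spread between mice of this experiment. Permutation p values rank that difference among reassignments of the same mice.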

Additional observations from a re-analysis of the deposited data

Results flagged for a closer look

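In vehicle mouse 1, *Creld2* was at 12.7 CPM, apart from the other 5 vehicle mice at 8.27 to 9.65 CPM. *Hsp90b1* was at 306 CPM in the same mouse, against 228 to 252 CPM in the others. Both stood out by Dixon's criterion for 6 samples, in which the gap to the nearest sample is set against the range of the group. Of 20 groups examined (10 genes in 2 groups) 2 stood out, where chance gives about 1. Neither gene passed the test between groups with or without this mouse.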

How the results depend on the processing

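In 23 alternatives *Herpud1* (log2 fold change 1.17 to 1.32), *Dnajb9* (0.49 to 0.75) and *Xbp1* (-0.59 to -0.39) kept direction and passed the test, and so did *Pdia4* in 22, failing with SK-124 mice 1 to 3 (-0.20; range over all 23, -0.41 to -0.20). Members counted as higher were 2 throughout (2 to 2 leaving out each mouse), and those lower were 2, or 1 with only SK-124 mice 1 to 3. Other ER genes counted as higher, 5 in the analysis reported, were 0 with library totals, 0 with limma on log2(TPM + 1), 0 with limma on log2(TPM + 0.1), 10 with DESeq2, 3 with only SK-124 mice 4 to 6, and 4 to 12 leaving out each mouse, 12 being without vehicle mouse 3. Those lower, 6, were 18 with library totals and 6 to 8 leaving out each mouse. Some members that did not pass changed sign, and none passed the test there. *Hspa5* was -0.11 with library totals, -0.18 with both TPM pseudocounts (-0.1753 and -0.1771), -0.0097 with SK-124 mice 1 to 3, and -0.0354 to 0.0727 leaving out each mouse. *Creld2* was -0.0298 and -0.0348 with the TPM pseudocounts 1 and 0.1, and -0.032 with SK-124 mice 1 to 3. *Hsp90b1* was 0.0009 with DESeq2, 0.004 with SK-124 mice 1 to 3, and -0.0393 to 0.0489 leaving out each mouse. *Calr* was 0.0124 with SK-124 mice 1 to 3, and -0.0474 to 0.0266 leaving out each mouse. With library totals and the TPM pseudocounts 1 and 0.1, *Hsp90b1* was -0.13, -0.17 and -0.18 and *Calr* -0.13, -0.19 and -0.19, none past the test. The causes were not tested. Over all genes, 44.5% of calls were higher, against 20.3% with library totals and 19.0% on the TPM scale.

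Replicate numbers did not pair the samples (correlations of same-numbered deviations -0.13 to 0.22). With the replicate block 2 members were higher and 2 lower, and 3466 genes passed in place of 3453. Depth limits *Sdf2l1* most, with 44 to 80 counts per mouse.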
